A study of Saccharomyces cerevisiae with 10 samples.

Results

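The heat response of an evolved strain of the budding yeast Saccharomyces cerevisiae was compared with that of its control strain, gene by gene, as the change from 30 °C to 50 °C in the strain Z100 minus the same change in the strain XH7. All genes of the deposited count table that passed a filter on low counts were members, 6015 of 6059 genes. The labels call XH7 the control strain and Z100 the adaptive strain, which was evolved under modest thermal stress. The 4 groups were both strains at both temperatures, with 2 libraries a group for XH7 and 3 a group for Z100. The labels give 1 h of heat shock at 50 °C for both strains. Their protocol text has the other cultures kept in an ice-water mixture, so whether the cells labelled 30 °C had been chilled cannot be told from it. The labels do not say whether Z100 is a single clone, and give no genotype for either strain. They do not say that replicates were separate cultures, so the p-values reflect only how far these libraries spread, and that spread may be technical.

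In yeast, heat shock calls up the transcription factor Hsf1, which drives chaperone genes, and the paired factors Msn2 and Msn4, which drive a general stress programme that includes trehalose and glycogen metabolism. Protein kinase A holds Msn2 and Msn4 back while glucose is plentiful. Cells under stress at the same time turn down genes for ribosome assembly and ribosomal proteins. Glucose also sets which hexose transporters are made, in part through the repressor Rgt1, and keeps genes for other carbon sources silent. The comparison of strains asks which of these responses differ in size or direction in the evolved strain. The study's stated aim was to find what had changed in its genes.

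Below, the interaction is the log2 heat response in Z100 minus that in XH7, given with its standard error. A positive interaction means that a gene rose more, or fell less, in Z100, and is called a higher response. A negative one means that it rose less, or fell more, and is called a lower response. CPM are counts scaled to library size and by TMM factors, with no correction for gene length, so they compare libraries and not genes. Libraries held 51901045 to 81442848 counts. The TMM factor was 1.016 in XH7 50 °C replicate 2 and 0.678 to 0.841 in the other libraries at 50 °C. In the libraries at 30 °C it was 1.075 to 1.375, highest in XH7 30 °C replicate 2. The SD of log2 CPM between replicates, as a median of all genes, was 0.0917 at 30 °C and 0.324 at 50 °C in XH7, and 0.174 and 0.258 in Z100. The test fitted 1 relative spread a gene to all 4 groups. Standard errors and p-values therefore do not reflect these differences, and may understate the uncertainty of XH7 at 50 °C. RNA was measured in bulk and on a relative scale, so fewer cells making a transcript and less of it per cell cannot be told apart.

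The heat responses of the strains differed in 257 genes, 4.27% of those tested (edgeR's quasi-likelihood test, Benjamini-Hochberg adjusted p under 0.05), and 1472 genes had an unadjusted p under 0.05. The response was lower in Z100 in 159 genes (2.64% of those tested) and higher in 98 (1.63%). Scaled by library size alone, the split was 299 lower and 39 higher. The median size of the interaction was 1.476 in called genes and 0.4654 in all genes tested. It was at least 1 in 241 called genes and at least 2 in 58. The smallest called interaction was 0.8119 in size. In simulated data with the same 6015 genes, the test recovered 12% of interactions of 1, 50% of those of 1.5 and 82% of those of 2. The simulation gave each gene the same mean level and relative spread in every group, apart from the added change. It held no other heat or strain effect, so these rates may not hold for the measured libraries. Counts are less certain for 19 called genes that overlap a neighbour and for 18 with a near-identical copy.

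In most called genes, as in most of all genes tested, the strains differed more at 30 °C than after heat shock. Among the 159 genes with a lower response, the strain difference was larger in size at 30 °C in 121 and at 50 °C in 38. The median log2 difference of Z100 from XH7 in these genes was 1.28 at 30 °C and -0.34 at 50 °C. Among the 98 genes with a higher response, it was larger at 30 °C in 67 and at 50 °C in 31, with medians of -0.81 and 0.51. Over all genes tested the difference was larger at 30 °C in 3763, or 62.6%. A strain difference was called in 28.4% of genes at 30 °C and in 8.96% at 50 °C, and a heat response in 63.3% in XH7 and 69.9% in Z100. These comparisons share their libraries with the interaction and are its parts, not separate evidence. Of the lower responses, 42 genes had heat values above 0 in both strains, 67 had values below 0 in both, and 50 were above 0 in XH7 and below 0 in Z100. Of the higher responses, 51 were above 0 in both strains, 21 below 0 in both, and 26 below 0 in XH7 and above 0 in Z100. The sign of an interaction excludes the reverse crossing, and a large size favours the crossing counted. No share over all genes was taken, so these counts do not show a trait of the called genes.

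**Figure D1:**
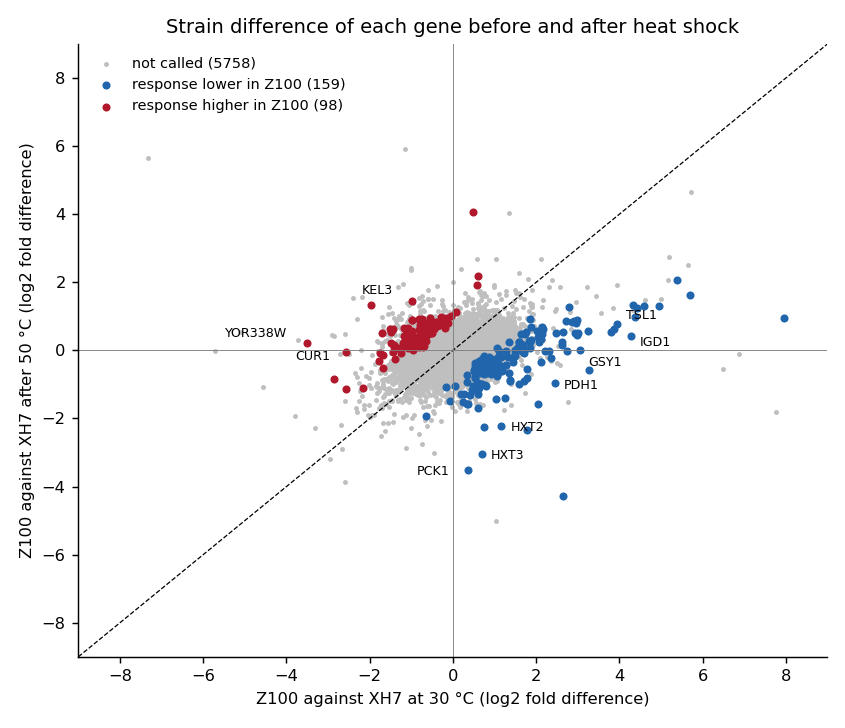
Log2 difference of Z100 from XH7 at 30 °C (horizontal) and after heat shock at 50 °C (vertical) for the 6015 genes tested. Each point is a gene, the dashed line marks equal differences, and a gene's vertical distance from it is its interaction. The 159 genes with a lower response lie below the line, most of them to the right of 0, and the 98 with a higher response lie above it, most of them to the left.

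The number of calls depended on single libraries. It was 2 without XH7 30 °C replicate 2 and 22 without XH7 30 °C replicate 1. It was 114, 174 and 57 without Z100 30 °C replicates 1, 2 and 3, and 432, 194 and 87 without Z100 50 °C replicates 1, 2 and 3. It fell without XH7 50 °C replicate 1 and rose without XH7 50 °C replicate 2, the library with the highest TMM factor at 50 °C. Without that last library, 256 of the 257 genes were called again. All 257 kept their sign in each of the 10 fits without 1 library. They were chosen by the fit to all 10 libraries, which shares most libraries with each of these fits. Kept signs are therefore no separate support. A called gene was called in a median of 4 of these 10 fits. Only PDH1 and YBL005W-A were called in each of them. Where the number of such fits is given below, the others ended the call, and for every other gene named as called the fit without XH7 30 °C replicate 2 was among them.

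**Figure D2:**
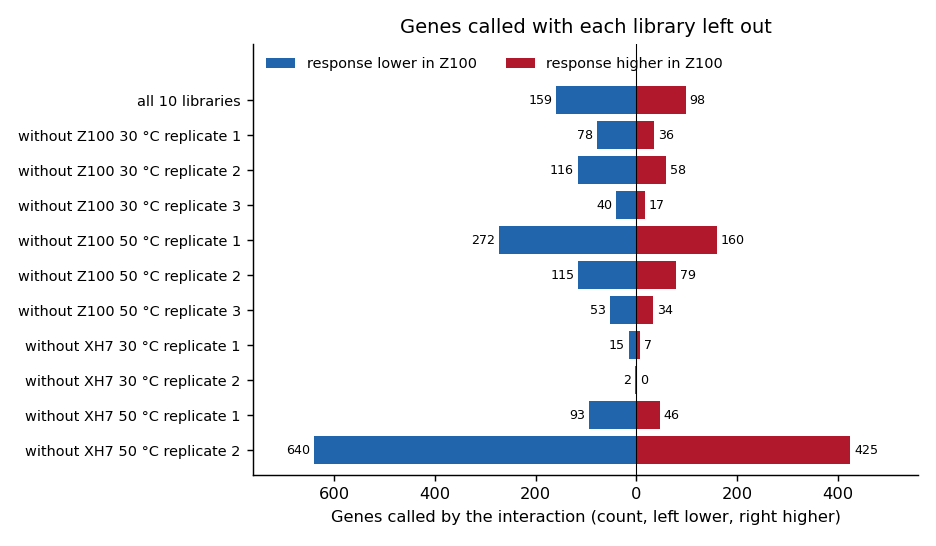
Number of genes called with all 10 libraries and with each library left out (horizontal axis, count; lower responses in Z100 to the left, higher to the right). The bars shrink to 2 and 0 genes without XH7 30 °C replicate 2 and grow to 640 and 425 without XH7 50 °C replicate 2.

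Genes of trehalose and glycogen metabolism rose with heat, 22 of 25 in XH7 and 21 in Z100, and 6 of them rose less in Z100. Trehalose is a sugar that protects proteins and membranes under heat, and glycogen is the cell's glucose store. These 6 had a lower response and no member a higher one (TSL1, GSY1, IGD1, GLC3, GPH1 and PGM2), and the median interaction was -0.50 against 0.05 over all genes tested. The share called was 24%, against 4.27% of all genes tested. TSL1 (YML100W, chromosome XIII, 70624 to 73920, plus strand) encodes a large subunit of the complex that makes trehalose. It stood at 11.5 and 10.2 CPM in XH7 at 30 °C, 8733 and 5352 CPM in XH7 at 50 °C, 154, 185 and 161 CPM in Z100 at 30 °C, and 16232, 9533 and 10090 CPM in Z100 at 50 °C. Z100 was above XH7 at both temperatures with no overlap, by 3.94 ± 0.36 on the log2 scale at 30 °C and 0.76 ± 0.30 at 50 °C (not called). Heat raised it by 9.35 ± 0.47 in XH7 and 6.16 ± 0.33 in Z100, an interaction of -3.18 ± 0.43 (adjusted p = 0.00798, edgeR).

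The promoter of TSL1 is shown because it holds the stress response element bound by Msn2 and Msn4 in several copies. The window runs from 400 to 101 bases before the annotated start of the coding sequence (chrXIII:70224-70523, plus strand, R64, RefSeq), and capitals mark AGGGG, or its reverse complement, at 5 places.
TSL1: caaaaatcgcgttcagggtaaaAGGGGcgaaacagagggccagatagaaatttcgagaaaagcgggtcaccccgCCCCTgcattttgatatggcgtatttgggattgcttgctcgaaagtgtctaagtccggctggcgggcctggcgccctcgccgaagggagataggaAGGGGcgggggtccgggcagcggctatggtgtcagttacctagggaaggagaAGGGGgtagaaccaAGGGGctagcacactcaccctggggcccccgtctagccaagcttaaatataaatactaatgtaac
The letters AGGGG, on either strand, were in the same window of 19 of the 25 trehalose and glycogen genes (76.0%), of 32.7% of the genes with a lower response, of 28.6% of those with a higher one and of 23.6% of all genes tested. A match describes the letters and does not show that a factor binds.

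GSY1 (YFR015C, chromosome VI, 174265 to 176391, minus strand), a glycogen synthase, stood at 19.8 and 21.2 CPM in XH7 at 30 °C, 745 and 1058 CPM in XH7 at 50 °C, 126, 214 and 168 CPM in Z100 at 30 °C, and 861, 854 and 1003 CPM in Z100 at 50 °C. The strains overlapped after heat shock and were apart at 30 °C, where Z100 was higher by 3.05 ± 0.28. Its rise was 5.46 ± 0.33 in XH7 and 2.42 ± 0.23 in Z100, an interaction of -3.04 ± 0.36 (adjusted p = 0.00582, edgeR). IGD1 (YFR017C, chromosome VI, 182274 to 182861, minus strand), an inhibitor of the glycogen debranching enzyme, stood at 5.10 and 4.28 CPM in XH7 at 30 °C, 468 and 326 CPM in XH7 at 50 °C, 64.5, 127 and 81.1 CPM in Z100 at 30 °C, and 685, 442 and 483 CPM in Z100 at 50 °C. Again the strains overlapped only at 50 °C. Its interaction was -3.84 ± 0.46 (adjusted p = 0.00582). GLC3, the glycogen branching enzyme gene, rose by 3.92 ± 0.41 in XH7 and 1.44 ± 0.30 in Z100 (interaction -2.48 ± 0.48, adjusted p = 0.0226). PGM2, a phosphoglucomutase gene also in the general stress list, had an interaction of -2.03 ± 0.34 (adjusted p = 0.0154). TPS1, which encodes the trehalose phosphate synthase, was not called, with an interaction of -1.68 ± 0.59 (adjusted p = 0.122), though it was called without XH7 50 °C replicate 2 (adjusted p = 0.0418). Without 1 library, TSL1 and PGM2 were each called in 8 of 10 fits, GSY1 and IGD1 in 9 and GLC3 in 6. Over these fits the adjusted p of TSL1 ran from 0.00353 to 0.0862 and that of GLC3 from 0.0186 to 0.157.

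Lower responses in Z100 were called for 4 genes of hexose transport. Hexose transporters carry glucose across the plasma membrane, and the cell chooses among low-affinity and high-affinity forms by how much glucose is outside. They were HXT10, HXT3, HXT2 and HXT4 of 27 genes tested, of which none had a higher response, with a median interaction of -0.89. These 4 are 14.8% of the list, against 4.27% called of all genes tested. HXT3 (YDR345C, chromosome IV, 1162957 to 1164660, minus strand), a low-affinity transporter, stood at 3053 and 2799 CPM in XH7 at 30 °C, 227 and 641 CPM in XH7 at 50 °C, 4028, 5344 and 4845 CPM in Z100 at 30 °C, and 48.2, 57.7 and 53.1 CPM in Z100 at 50 °C. The strains did not overlap at either temperature: Z100 was higher by 0.70 ± 0.37 at 30 °C (not called) and differed by -3.03 ± 0.37 at 50 °C. The gene fell by 2.75 ± 0.42 in XH7 and fell by 6.48 ± 0.41 in Z100 on the log2 scale, an interaction of -3.73 ± 0.53 (adjusted p = 0.00847, edgeR).

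The promoter window of HXT3 (chrIV:1164761-1165060, minus strand, R64, RefSeq) is shown for its matches to the letters of the Rgt1 site, CGGANNA on either strand, which capitals mark at 2 places.
HXT3: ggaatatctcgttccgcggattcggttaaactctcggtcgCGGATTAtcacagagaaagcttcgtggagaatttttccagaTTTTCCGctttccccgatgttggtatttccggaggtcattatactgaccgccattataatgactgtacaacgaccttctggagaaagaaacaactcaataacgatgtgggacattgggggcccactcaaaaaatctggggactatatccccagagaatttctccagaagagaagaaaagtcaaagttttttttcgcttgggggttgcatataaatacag
These letters were in the window of 55.6% of the hexose transport and glucose sensing genes, 32.1% of the genes with a lower response, 26.5% of those with a higher one and 29.6% of all genes tested.

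HXT2 (YMR011W, chromosome XIII, 288079 to 289704, plus strand), a high-affinity transporter, stood at 569 and 476 CPM in XH7 at 30 °C, 22.1 and 41.0 CPM in XH7 at 50 °C, 908, 1393 and 1222 CPM in Z100 at 30 °C, and 6.96, 7.48 and 5.84 CPM in Z100 at 50 °C. It was higher in Z100 at 30 °C and lower in Z100 after heat shock, with no overlap at either temperature. It fell by 4.05 ± 0.35 in XH7 and fell by 7.44 ± 0.34 in Z100, an interaction of -3.39 ± 0.41 (adjusted p = 0.00582, edgeR). HXT4, a further transporter, was at 1602 and 1427 CPM in XH7 at 30 °C, 494 and 1196 CPM in XH7 at 50 °C, 1792, 3319 and 2500 CPM in Z100 at 30 °C, and 123, 218 and 188 CPM in Z100 at 50 °C. Here too the heat-shocked libraries of Z100 lay below those of XH7, and the interaction was -3.01 ± 0.57 (adjusted p = 0.0223). HXT10 had an interaction of -4.11 ± 0.92 (adjusted p = 0.037), but its libraries lay between 0.121 and 1.85 CPM and its call was held in 2 of 10 fits without 1 library. HXT3 was called in 8 of these fits, HXT2 in 9 and HXT4 in 6, and the adjusted p of HXT3 ran from 0.000191 to 0.0936. HXT1, a low-affinity transporter, was not called, with an interaction of -1.15 ± 0.53 (adjusted p = 0.214) that was -0.71 without XH7 50 °C replicate 2.

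Genes for using carbon sources other than glucose had the lowest median of the lists. Gluconeogenesis and the glyoxylate cycle let yeast grow on ethanol or acetate, and the methylcitrate cycle serves the breakdown of propionate. Glucose shuts the genes of these pathways down. Of 19 genes tested, 7 had a lower response and none a higher one (PCK1, ICL2, PDH1, CIT2, MLS1, JEN1 and ICL1), with a median interaction of -1.18. That is 36.8% of the list, against 4.27% called of all genes tested. PCK1 (YKR097W, chromosome XI, 631152 to 632801, plus strand), the phosphoenolpyruvate carboxykinase gene of gluconeogenesis, stood at 17.1 and 19.6 CPM in XH7 at 30 °C, 11.9 and 33.1 CPM in XH7 at 50 °C, 23.6, 20.7 and 26.1 CPM in Z100 at 30 °C, and 1.68, 2.27 and 1.95 CPM in Z100 at 50 °C. The heat-shocked Z100 libraries lay below all others, and the 50 °C libraries of XH7 lay on either side of its 30 °C libraries. The gene's heat value was 0.30 ± 0.38 in XH7, which was not called, and it fell by 3.58 ± 0.35 in Z100. The interaction was -3.87 ± 0.52 (adjusted p = 0.00794, edgeR).

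PDH1 (YPR002W, chromosome XVI, 558385 to 559935, plus strand), a dehydratase of the methylcitrate cycle, stood at 18.7 and 20.1 CPM in XH7 at 30 °C, 4.45 and 5.24 CPM in XH7 at 50 °C, 129.5, 101 and 88.0 CPM in Z100 at 30 °C, and 2.89, 2.15 and 2.41 CPM in Z100 at 50 °C. It was higher in Z100 at 30 °C, by 2.45 ± 0.22, and lower in Z100 at 50 °C, with a log2 difference of -0.97 ± 0.21, with no overlap at either temperature. It fell in both strains, with log2 heat values of -2.004 ± 0.23 in XH7 and -5.42 ± 0.22 in Z100, and its interaction of -3.42 ± 0.30 (adjusted p = 0.0013, edgeR) was called in 10 of 10 fits without 1 library, with adjusted p-values from 0.000779 to 0.0287. ICL2 (YPR006C, chromosome XVI, 567269 to 568996, minus strand), the mitochondrial 2-methylisocitrate lyase gene of the same cycle, went in opposite directions: it stood at 8.80 and 7.93 CPM in XH7 at 30 °C, 37.0 and 16.8 CPM in XH7 at 50 °C, 92.2, 71.4 and 78.2 CPM in Z100 at 30 °C, and 23.3, 14.02 and 17.1 CPM in Z100 at 50 °C. It rose by 1.69 ± 0.36 in XH7 and fell by 2.15 ± 0.29 in Z100, an interaction of -3.84 ± 0.46 (adjusted p = 0.00582). The strains were apart at 30 °C and overlapped at 50 °C. CIT2, the peroxisomal citrate synthase gene of the glyoxylate cycle, had an interaction of -2.32 ± 0.55 (adjusted p = 0.0469). PCK1 was called in 8 of 10 fits without 1 library, ICL2 in 9 and CIT2 in 2, and the adjusted p of PCK1 ran from 0.000191 to 0.0862.

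The called genes of the TCA cycle, respiration and other mitochondrial lists were all lower. The share called was 16.7% for the TCA cycle, and for the respiratory chain (5.13%), mitochondrial ribosomal proteins (5.33%) and mitochondrial chaperones and proteases (6.25%) it was near the 4.27% of all genes tested. Of 18 TCA cycle genes, 3 had a lower response and none a higher one, with a median of -0.70, and all 3 encode subunits of succinate dehydrogenase, the enzyme shared by the cycle and the respiratory chain. SDH1 stood at 77.7 and 64.9 CPM in XH7 at 30 °C, 432 and 223 CPM in XH7 at 50 °C, 366, 554 and 406 CPM in Z100 at 30 °C, and 498, 317 and 358 CPM in Z100 at 50 °C. It rose by 2.20 ± 0.36 in XH7 and had a heat value of -0.18 ± 0.28 in Z100, where the libraries of the temperatures overlapped. Its interaction was -2.37 ± 0.45 (adjusted p = 0.0219, edgeR), and those of SDH4 and SDH2 were -1.51 ± 0.35 and -1.19 ± 0.25 (adjusted p = 0.0426 and 0.0308). Of 39 genes of the respiratory chain and ATP synthase, 2 had a lower response (COX5A, a subunit of cytochrome c oxidase, and INH1, an inhibitor of the ATP synthase), with a median of -0.40. COX5A rose by 0.59 ± 0.18 in XH7 and fell by 1.06 ± 0.15 in Z100 (interaction -1.65 ± 0.24, adjusted p = 0.009), and INH1 had an interaction of -1.502 ± 0.24 (adjusted p = 0.0131). Of 75 mitochondrial ribosomal protein genes, 4 had a lower response (MRPS12, RSM7, MRPL3 and MNP1), from -1.72 ± 0.41 to -0.92 ± 0.21, with a median of -0.24. Of 16 mitochondrial chaperones and proteases, only AFG3, a subunit of an inner membrane protease, was called, at -1.36 ± 0.32 (median -0.04). COX5A and INH1 were called in 8 of 10 fits without 1 library, SDH1 in 6, and the other 7 genes named here in 2.

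Glycolysis and fermentation gave 4 calls, all in the glycolytic list, where they made 17.4% against 4.27% of all genes tested. Of 23 glycolytic genes, 2 had a lower response and 2 a higher one, with a median of -0.41 that lay between -0.81 and 0.02 without 1 library. HXK1, a hexokinase gene, stood at 237 and 223 CPM in XH7 at 30 °C, 7208 and 7691 CPM in XH7 at 50 °C, 909.6, 1082 and 1025 CPM in Z100 at 30 °C, and 11515, 12283 and 12301 CPM in Z100 at 50 °C. It was higher in Z100 at both temperatures with no overlap, though the difference at 50 °C was not called (adjusted p = 0.0555, edgeR). Its interaction was -1.44 ± 0.27 (adjusted p = 0.0219, edgeR). GLK1, the glucokinase gene, had an interaction of -2.59 ± 0.61 (adjusted p = 0.0457), which was -1.71 without XH7 50 °C replicate 1, and it overlaps YCL042W. GCR1, an activator of glycolytic genes, had an interaction of 1.12 ± 0.21 (adjusted p = 0.0219), and GPM2, a homologue of phosphoglycerate mutase, of 1.37 ± 0.27 (adjusted p = 0.0237). HXK1 and GCR1 were called in 6 of 10 fits without 1 library, GPM2 in 3 and GLK1 in 2. Of 19 genes of ethanol and acetate metabolism none was called (median -0.52). The main pyruvate decarboxylase gene PDC1 had an interaction of -1.43 ± 0.50 (adjusted p = 0.122), which was called without XH7 50 °C replicate 2 (adjusted p = 0.0225) and was -0.79 without XH7 50 °C replicate 1. The alcohol dehydrogenase gene ADH1 had one of -0.62 ± 0.46 (adjusted p = 0.43), which was -0.02 without XH7 50 °C replicate 1 and -1.08 without XH7 50 °C replicate 2.

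**Figure D3:**
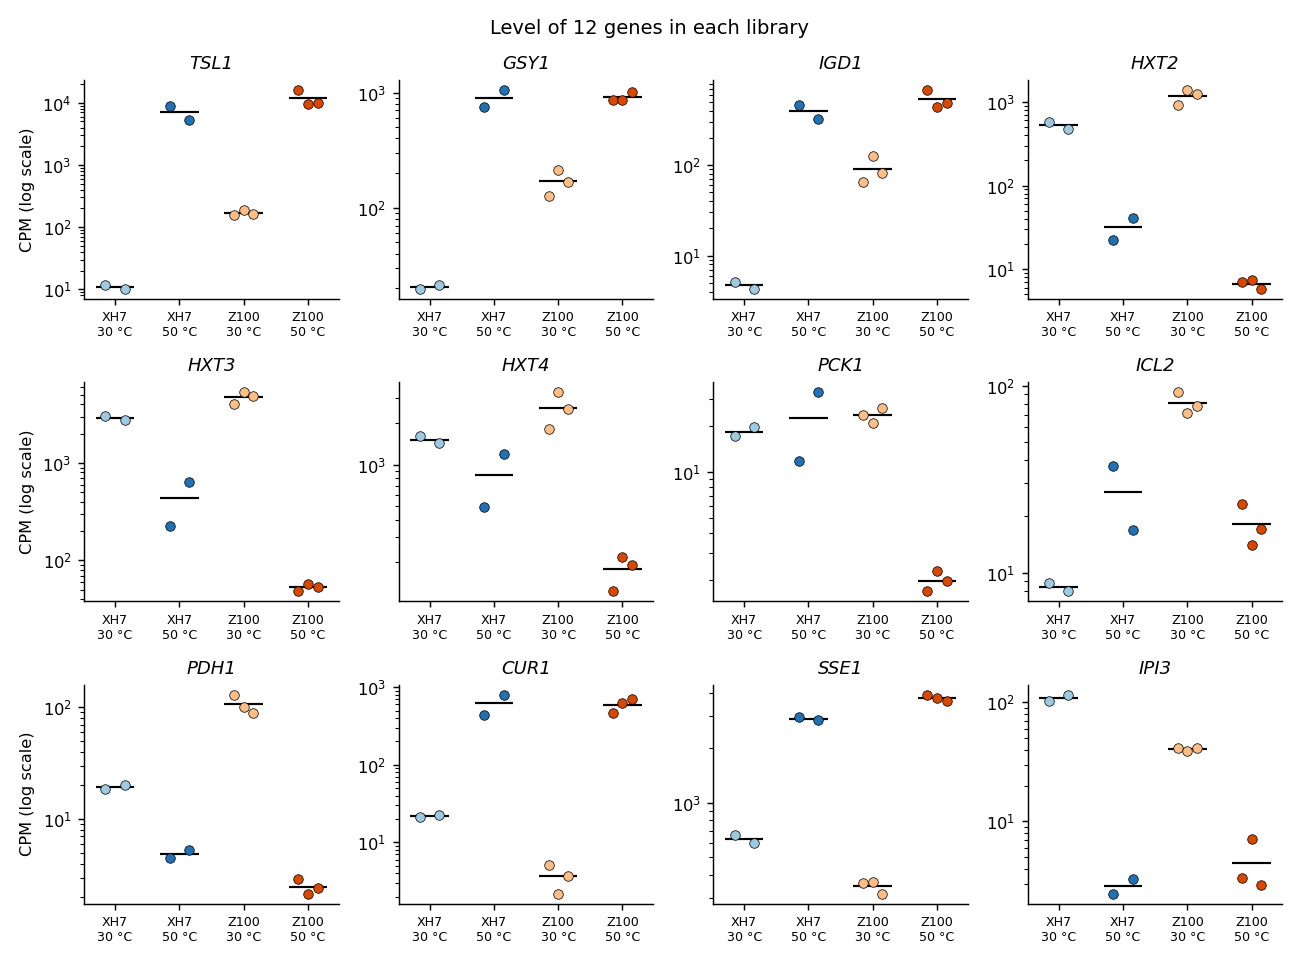
CPM of 12 genes (vertical, log scale, 1 panel a gene) in each of the 10 libraries, by strain and temperature. Points are libraries and bars are group means. TSL1, GSY1 and IGD1 start higher in Z100 and end at levels closer to those of XH7, HXT2, HXT3 and HXT4 end lower in Z100, and CUR1 and SSE1 start lower in Z100.

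Cytosolic chaperones rose with heat, 25 of 30 in each strain. Of the 30, 24 had an interaction above 0, as did 3186 of all 6015 genes tested. Chaperones hold, refold or pull apart proteins that heat has unfolded. Of the 30 genes, 3 had a higher response (CUR1, YDJ1 and SSE1) and 1 a lower one (HSP42), with a median interaction of 0.59. The share called was 13.3%, against 4.27% of all genes tested. CUR1 (YPR158W, chromosome XVI, 843262 to 844020, plus strand) encodes a factor that sorts misfolded proteins. It stood at 21.2 and 22.7 CPM in XH7 at 30 °C, 438 and 802 CPM in XH7 at 50 °C, 5.12, 2.17 and 3.70 CPM in Z100 at 30 °C, and 464, 626 and 698 CPM in Z100 at 50 °C. At 30 °C Z100 lay below XH7, with a log2 difference of -2.58 ± 0.36, and after heat shock the strains overlapped. The rise was 4.82 ± 0.46 in XH7 and 7.34 ± 0.42 in Z100, an interaction of 2.52 ± 0.51 (adjusted p = 0.0261, edgeR).

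SSE1 (YPL106C, chromosome XVI, 350194 to 352275, minus strand), an Hsp110 that serves as nucleotide exchange factor of Hsp70, stood at 660.4 and 598 CPM in XH7 at 30 °C, 2957 and 2845 CPM in XH7 at 50 °C, 359.9, 367 and 315 CPM in Z100 at 30 °C, and 3937, 3789 and 3619 CPM in Z100 at 50 °C. Z100 was below XH7 at 30 °C and above it at 50 °C, with no overlap, though the difference at 50 °C was not called. Neither strain difference was larger than 1 on the log2 scale. The interaction was 1.24 ± 0.26 (adjusted p = 0.0275, edgeR). YDJ1, the main cytosolic J-protein gene, showed the same order, at 421 and 429 CPM in XH7 at 30 °C, 1823 and 1980 CPM in XH7 at 50 °C, 231, 241 and 207 CPM in Z100 at 30 °C, and 2383, 2352 and 2490 CPM in Z100 at 50 °C. Its interaction was 1.25 ± 0.25 (adjusted p = 0.0236), and its strain difference at 50 °C was not called either.

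The promoter window of CUR1 (chrXVI:842862-843161, plus strand, R64, RefSeq) is shown for the core of the heat shock element bound by Hsf1, GAANNTTC or TTCNNGAA on either strand, of which capitals mark 1 match.
CUR1: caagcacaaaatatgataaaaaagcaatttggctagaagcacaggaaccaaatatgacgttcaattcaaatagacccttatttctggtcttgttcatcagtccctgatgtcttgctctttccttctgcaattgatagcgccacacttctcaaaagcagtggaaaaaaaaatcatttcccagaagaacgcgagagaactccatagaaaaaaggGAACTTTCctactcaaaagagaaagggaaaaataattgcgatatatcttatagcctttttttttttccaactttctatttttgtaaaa
The core was in the window of 73.3% of the chaperone list, 33.7% of the genes with a higher response, 17.0% of those with a lower one and 23.5% of all genes tested.

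HSP42, a small heat shock protein gene, went the other way: it stood at 18.6 and 19.6 CPM in XH7 at 30 °C, 13474 and 14375 CPM in XH7 at 50 °C, 79.6, 93.6 and 67.0 CPM in Z100 at 30 °C, and 16812, 16512 and 16396 CPM in Z100 at 50 °C. It was higher in Z100 at both temperatures without overlap, mainly at 30 °C (2.07 ± 0.23 against 0.25 ± 0.21 at 50 °C, which was not called). Its interaction was -1.82 ± 0.30 (adjusted p = 0.0141, edgeR). Other chaperone genes with large rises were not called. The interaction was -0.87 ± 0.59 for the small heat shock protein gene HSP26 (adjusted p = 0.389), -0.68 ± 0.31 for the disaggregase gene HSP104 (0.21), 0.27 ± 0.42 for the Hsp70 gene SSA4 (0.725) and 0.73 ± 0.41 for the Hsp90 gene HSP82 (0.306). SSA4 turned to -0.12 without XH7 50 °C replicate 2. With the labels' replicate number added to the fit as a block, CUR1, YDJ1 and SSE1 lost their calls. CUR1 was called in 5 of 10 fits without 1 library, YDJ1 in 5, SSE1 in 4 and HSP42 in 7, and the adjusted p of CUR1 ran from 0.0127 to 0.157. The call of CUR1 ended when replicate 3 of Z100 was left out at 30 °C or at 50 °C, and when any XH7 library other than XH7 50 °C replicate 2 was.

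**Figure D4:**
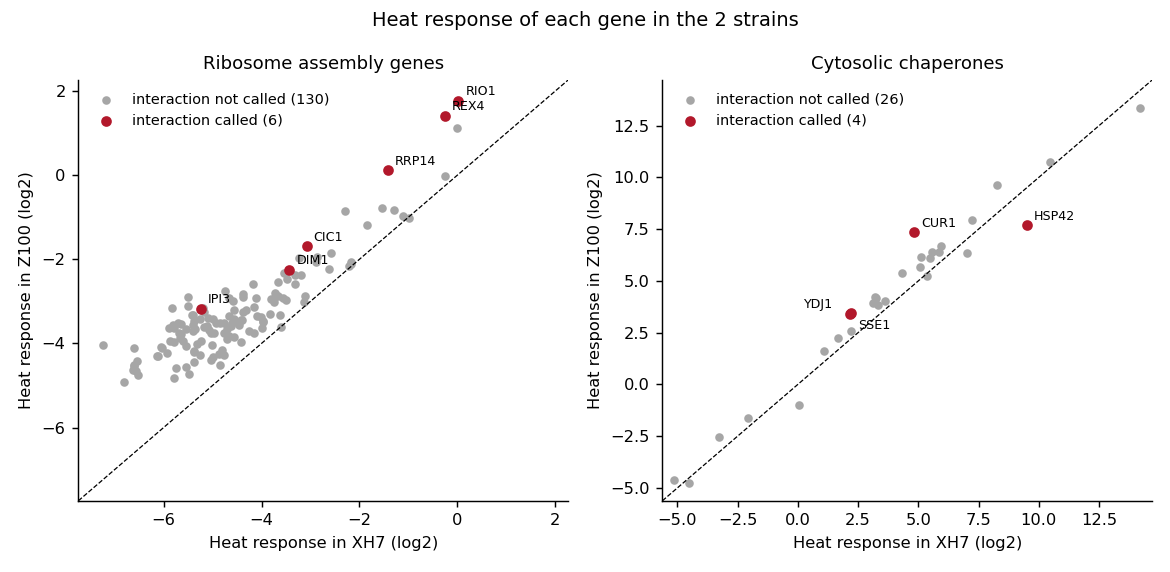
Log2 heat response in XH7 (horizontal) and in Z100 (vertical) of the ribosome assembly genes, left, and of the cytosolic chaperone genes, right. Each point is a gene, the dashed line marks equal responses and red points had a called interaction. All but 2 assembly genes lie above the line, and 24 of 30 chaperone genes do, with HSP42 the called gene below it.

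General stress genes assigned to Msn2 and Msn4 rose in both strains, 37 of 39 in XH7 and all 39 in Z100. Of the 39, 4 had a lower response (RTC3, HSP30, STF2 and PGM2, given above) and 1 a higher one, with a median of 0.01 that lay between -0.20 and 0.12 without 1 library. The 5 called are 12.8% of the list, against 4.27% of all genes tested. HSP30, which encodes a plasma membrane protein that restrains the proton pump, stood at 34.8 and 34.8 CPM in XH7 at 30 °C, 22074 and 20696 CPM in XH7 at 50 °C, 212, 206 and 225 CPM in Z100 at 30 °C, and 24425, 21513 and 25300 CPM in Z100 at 50 °C. The strains overlapped at 50 °C, and Z100 was higher by 2.62 ± 0.22 at 30 °C. Its interaction was -2.47 ± 0.29 (adjusted p = 0.00582, edgeR). RTC3 had one of -2.68 ± 0.33 (adjusted p = 0.00582), and STF2 one of -1.73 ± 0.33 (adjusted p = 0.0219). RTN2, a reticulon gene of the endoplasmic reticulum, rose more in Z100, with an interaction of 1.59 ± 0.34 (adjusted p = 0.0317). The catalase gene CTT1 had an interaction of -1.35 ± 0.34 and missed the threshold (adjusted p = 0.0546), though leaving out Z100 50 °C replicate 1 gave a call (adjusted p = 0.0285) and so did leaving out XH7 50 °C replicate 2 (0.0377). HSP12, a membrane-associated stress protein gene, was at 0.263 and 0.395 CPM in XH7 at 30 °C, 978 and 534 CPM in XH7 at 50 °C, 1.74, 0.610 and 1.92 CPM in Z100 at 30 °C, and 5349, 4391 and 4722 CPM in Z100 at 50 °C. It was higher in Z100 at both temperatures and its interaction was 0.55 ± 0.64 (adjusted p = 0.616). HSP30 and RTC3 were called in 9 of 10 fits without 1 library, STF2 in 5 and RTN2 in 4.

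Ribosome assembly genes fell with heat, 61 of 64 for the small subunit and 70 of 72 for the large one in XH7, and 61 and 69 in Z100. The interaction was called in 6 of them, all higher in Z100, which is 3.12% of the first list and 5.56% of the second, near the 4.27% called of all genes tested. These genes encode the factors that cut, modify and fold ribosomal RNA on the way to the small and large subunits. Of 64 genes of the small subunit processome and 40S assembly, 63 had an interaction above 0 and 2 were called (RIO1 and DIM1), with a median of 1.10. Of 72 assembly factors of the 60S subunit, 71 were above 0 and 4 were called (IPI3, REX4, RRP14 and CIC1), with a median of 1.40. Over all genes tested 3186 were above 0 and the median was 0.05. The list medians stayed above 0 in every fit without 1 library, at 0.50 to 1.40 for the small subunit and 0.77 to 1.81 for the large one, and under the other 3 scalings, at 1.02 to 1.11 and 1.32 to 1.41. Genes of a list are not independent replicates. With the labels' replicate number added to the fit as a block, IPI3, DIM1, CIC1 and RRP14 lost their calls. The median heat value was -4.61 in XH7 and -3.50 in Z100 for the small subunit list and -4.86 and -3.49 for the large one. At 30 °C the median log2 difference of Z100 from XH7 was -1.029 and -1.004, and after heat shock 0.10 and 0.23.

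DIM1 (YPL266W, chromosome XVI, 39121 to 40077, plus strand), which methylates the RNA of the small subunit, stood at 108 and 102 CPM in XH7 at 30 °C, 9.69 and 9.72 CPM in XH7 at 50 °C, 60.1, 58.8 and 61.9 CPM in Z100 at 30 °C, and 14.7, 13.6 and 9.77 CPM in Z100 at 50 °C. Z100 was lower at 30 °C without overlap. At 50 °C its libraries lay just above those of XH7, but the difference of 0.39 ± 0.18 was not called (adjusted p = 0.21, edgeR). The gene fell by 3.44 ± 0.22 in XH7 and fell by 2.25 ± 0.17 in Z100, an interaction of 1.19 ± 0.25 (adjusted p = 0.0327, edgeR).

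The promoter window of DIM1 (chrXVI:38721-39020, plus strand, R64, RefSeq) is shown for the core of the PAC element common before ribosome assembly genes, GATGAG on either strand, which capitals mark at 2 places.
DIM1: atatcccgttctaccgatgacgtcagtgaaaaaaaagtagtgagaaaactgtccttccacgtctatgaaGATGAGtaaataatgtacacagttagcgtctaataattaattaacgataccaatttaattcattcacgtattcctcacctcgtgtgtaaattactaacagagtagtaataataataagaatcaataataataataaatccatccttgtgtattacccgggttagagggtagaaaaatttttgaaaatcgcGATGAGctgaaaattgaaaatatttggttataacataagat
GATGAG was in the window of 60.9% of the small subunit list, 61.1% of the large subunit list, 28.6% of all genes with a higher response, 18.2% of those with a lower one and 18.2% of all genes tested.

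IPI3 (YNL182C, chromosome XIV, 295960 to 297627, minus strand), a subunit of a complex that matures the large subunit, stood at 102 and 116 CPM in XH7 at 30 °C, 2.47 and 3.28 CPM in XH7 at 50 °C, 41.6, 38.6 and 41.3 CPM in Z100 at 30 °C, and 3.32, 7.16 and 2.92 CPM in Z100 at 50 °C. The strains overlapped at 50 °C, where Z100 replicate 2 was the highest, and were apart at 30 °C. The interaction was 2.06 ± 0.47 (adjusted p = 0.0407, edgeR). RIO1 (YOR119C, chromosome XV, 548792 to 550246, minus strand), a kinase of late 40S maturation, stood at 36.0 and 39.1 CPM in XH7 at 30 °C, 42.0 and 34.0 CPM in XH7 at 50 °C, 18.7, 12.9 and 21.4 CPM in Z100 at 30 °C, and 70.8, 61.0 and 49.1 CPM in Z100 at 50 °C. In XH7 its libraries overlapped between temperatures, and in Z100 it rose by 1.77 ± 0.22. The interaction was 1.75 ± 0.34 (adjusted p = 0.0226). REX4, a putative exonuclease gene, had an interaction of 1.67 ± 0.35 (adjusted p = 0.0293), RRP14 one of 1.53 ± 0.37 (0.0485) and CIC1 one of 1.39 ± 0.31 (0.0351). None of the 6 genes was called in every fit without 1 library: RIO1 was called in 7 of 10, IPI3 and REX4 in 4, DIM1 in 3, and CIC1 and RRP14 in 2. The adjusted p of IPI3 ran from 0.0231 to 0.205.

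Other genes of protein synthesis gave 1 call, in at most 2.63% of a list against 4.27% of all genes tested. Of 136 cytosolic ribosomal protein genes none was called, and their median of 0.16 lay between -0.34 and 1.18 without 1 library. Of 36 genes of RNA polymerases I and III none was called (median 0.46). Of 38 translation factor genes 1 was called, with a median of 0.23 that lay between -0.03 and 0.43 without 1 library. That gene was ANB1 (YJR047C, chromosome X, 524908 to 525381, minus strand), the form of the factor eIF5A that yeast makes with little oxygen. It stood at 79.2 and 64.2 CPM in XH7 at 30 °C, 7.98 and 14.7 CPM in XH7 at 50 °C, 8.57, 10.8 and 10.5 CPM in Z100 at 30 °C, and 6.29, 6.30 and 6.44 CPM in Z100 at 50 °C. XH7 at 30 °C was above every other group. The interaction was 2.01 ± 0.35 (adjusted p = 0.0187, edgeR), called in 7 of 10 fits without 1 library.

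Protein breakdown and folding in other compartments gave few calls, with no list above 5% called against 4.27% of all genes tested. Of 34 proteasome genes none was called, though 31 were above 0 (median 0.43). Of 31 genes of ubiquitin and quality control, RKR1, described below, was called. Of 26 genes of folding in the endoplasmic reticulum, ERO1, which makes disulphide bonds there, had a higher response: it rose by 4.74 ± 0.25 in XH7 and 6.17 ± 0.22 in Z100, an interaction of 1.43 ± 0.28 (adjusted p = 0.0226, edgeR). The list medians were 0.12 and -0.07, each with fits without 1 library on both sides of 0. Of 40 genes of autophagy and vacuolar proteases, 2 had a lower response (median -0.05). PEP4, the vacuolar aspartyl protease gene, had an interaction of -1.51 ± 0.24 (adjusted p = 0.0131) and ATG22, a vacuolar amino acid exporter gene, of -1.53 ± 0.34 (0.0353). PEP4 was called in 8 of 10 fits without 1 library, ERO1 in 4 and ATG22 in 2.

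**Figure D5:**
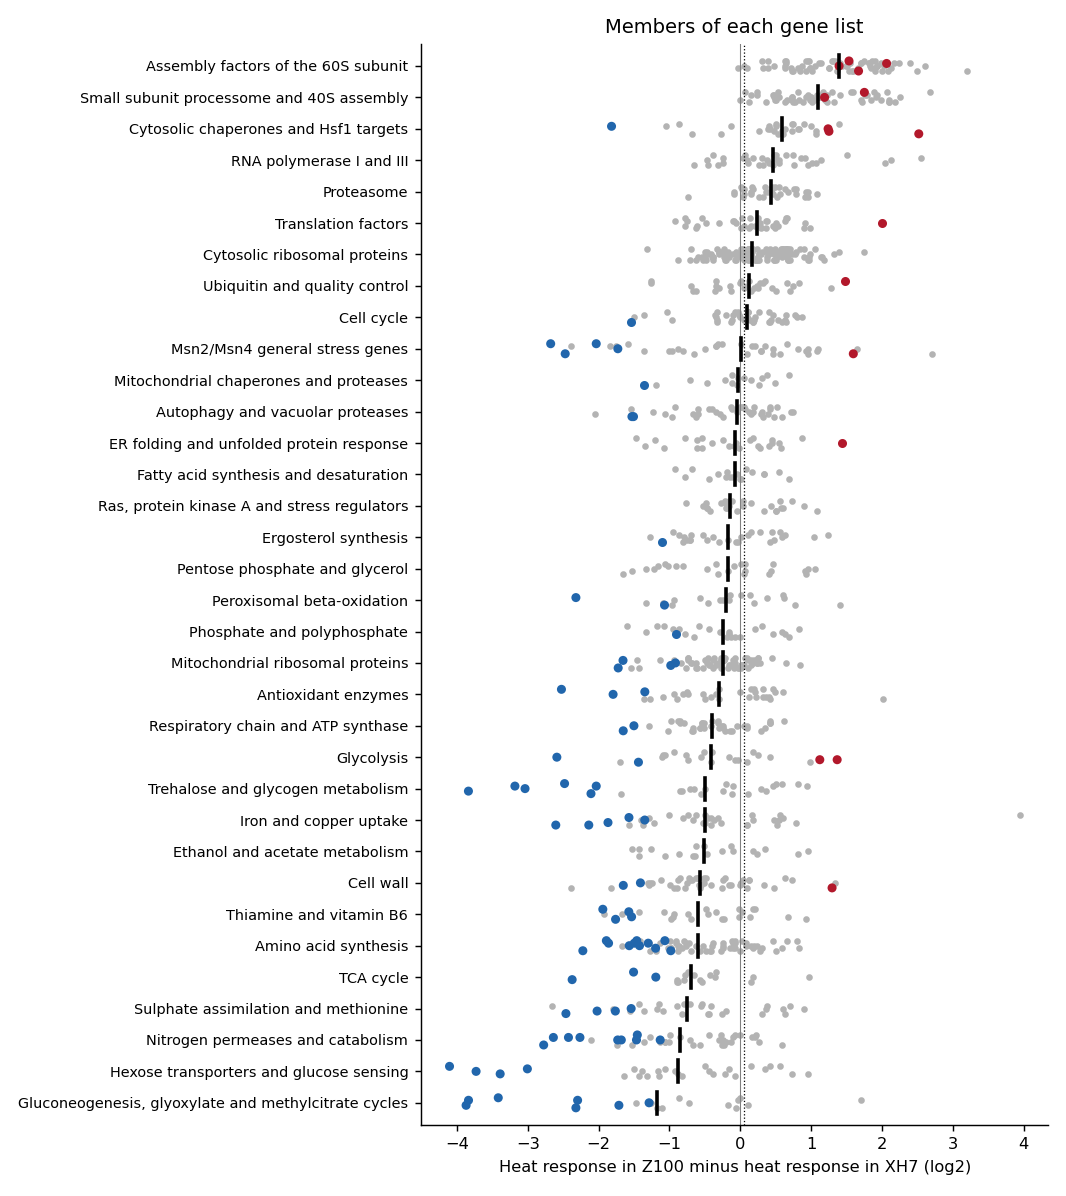
Interaction (horizontal, log2) of each member of 34 gene lists, ordered by their medians (black bars). Grey points were not called, blue points had a called lower response and red points a called higher one, the solid line marks 0 and the dotted line the median of all genes tested. Blue points gather in the lists of carbon, nitrogen and storage metabolism at the bottom, and the assembly factor lists at the top lie almost wholly to the right of 0.

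Genes of amino acid synthesis and nitrogen use had called members with lower responses only. Of 68 amino acid synthesis genes 11 had a lower response (median -0.60), and of 39 genes of nitrogen permeases and catabolism 9 did (median -0.85). These are 16.2% and 23.1% of the lists, against 4.27% called of all genes tested. GLT1, the glutamate synthase gene, stood at 236 and 179 CPM in XH7 at 30 °C, 200.3 and 172 CPM in XH7 at 50 °C, 287, 335 and 319 CPM in Z100 at 30 °C, and 90.4, 94.0 and 101 CPM in Z100 at 50 °C. The heat-shocked Z100 libraries lay below all others, and those of XH7 overlapped its 30 °C libraries. Its interaction was -1.57 ± 0.25 (adjusted p = 0.0131, edgeR). The arginine gene ARG1 had one of -2.22 ± 0.44 (adjusted p = 0.0237), ILV6, which regulates branched-chain amino acid synthesis, one of -1.89 ± 0.35 (0.0219) and the tryptophan synthase gene TRP5 one of -1.46 ± 0.26 (0.0198). MEP3, an ammonium permease gene, stood at 88.1 and 72.2 CPM in XH7 at 30 °C, 63.6 and 67.3 CPM in XH7 at 50 °C, 182, 202 and 235 CPM in Z100 at 30 °C, and 39.9, 29.1 and 36.4 CPM in Z100 at 50 °C. Z100 was above XH7 at 30 °C and below it at 50 °C without overlap, and the interaction was -2.26 ± 0.27 (adjusted p = 0.00582). PUT4, the proline permease gene, had an interaction of -2.78 ± 0.52 (adjusted p = 0.0219) and GAD1, the glutamate decarboxylase gene, of -2.43 ± 0.54 (0.037). GLT1 and MEP3 were called in 9 of 10 fits without 1 library, ILV6, TRP5 and PUT4 in 6, ARG1 in 5 and GAD1 in 2.

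Sulphur, vitamin and metal genes followed the same direction in their called members. Of all genes tested 4.27% were called. The share was 12.9% for sulphate assimilation and methionine, 15.4% for thiamine and vitamin B6 and 13.9% for iron and copper uptake. Of 31 genes of sulphate assimilation and methionine, 4 had a lower response (median -0.75). The methionine permease gene MUP3 rose by 2.92 ± 0.36 in XH7 and had a heat value of 0.45 ± 0.28 in Z100, an interaction of -2.46 ± 0.44 (adjusted p = 0.0198, edgeR). MET5, a sulphite reductase gene, had one of -2.02 ± 0.44, MMP1 one of -1.76 ± 0.33 and MET1 one of -1.54 ± 0.34. Of 26 thiamine and vitamin B6 genes 4 had a lower response (median -0.59), of which SNZ2 and SNZ3 are near-identical copies of each other and THI11 has copies in THI5, THI12 and THI13, so that their counts cannot be told apart with certainty. THI2, the activator of thiamine genes, has none, and its interaction was -1.76 ± 0.29 (adjusted p = 0.0139). Of 36 iron and copper uptake genes 5 had a lower response (SIT1, FET3, FTR1, ARN1 and SMF3; median -0.50).

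FET3, the ferroxidase gene of reductive iron uptake, stood at 32.5 and 31.2 CPM in XH7 at 30 °C, 23.2 and 13.7 CPM in XH7 at 50 °C, 243, 286 and 209 CPM in Z100 at 30 °C, and 36.6, 33.7 and 26.6 CPM in Z100 at 50 °C. Z100 was above XH7 at both temperatures, by 2.95 ± 0.27 at 30 °C and 0.81 ± 0.25 at 50 °C (not called). It fell by 0.79 ± 0.27 in XH7 and fell by 2.93 ± 0.23 in Z100, an interaction of -2.14 ± 0.35 (adjusted p = 0.0134, edgeR). Its partner permease gene FTR1 had an interaction of -1.87 ± 0.43 (adjusted p = 0.0412), and the siderophore transporter genes SIT1 and ARN1 had -2.60 ± 0.37 (0.0084) and -1.57 ± 0.28 (0.0198). Of 26 phosphate genes 1 was called, the phosphate transporter gene PHO87 (-0.91 ± 0.20, median -0.24). That is 3.85% of the list, near the 4.27% of all genes tested. SIT1 and FET3 were called in 8 of 10 fits without 1 library, THI2 in 7, MUP3, MMP1 and ARN1 in 6, MET5, MET1, SNZ3 and FTR1 in 3, and SNZ2, THI11 and PHO87 in 2.

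Genes against oxidants, of lipids and of the cell wall gave scattered calls, in 0% to 10% of each list against 4.27% of all genes tested. Of 32 antioxidant genes 3 had a lower response, with a median of -0.31 that lay between -0.43 and 0.03 without 1 library. They were the peroxiredoxin genes AHP1 (-1.80 ± 0.36, adjusted p = 0.0237, edgeR) and PRX1 (-1.35 ± 0.26, 0.023) and the sulphiredoxin gene SRX1 (-2.52 ± 0.57, 0.037). Of 29 ergosterol genes ERG3, a sterol desaturase gene, was called: it fell by 1.07 ± 0.20 in XH7 and fell by 2.19 ± 0.17 in Z100, an interaction of -1.11 ± 0.26 (adjusted p = 0.0407). Of 20 peroxisomal genes 2 were called, CIT2 above and ANT1, the peroxisomal nucleotide carrier gene (-1.07 ± 0.24). None of 18 fatty acid synthesis genes and none of 25 genes of the pentose phosphate pathway and glycerol was called. The medians of these 4 lists were -0.17, -0.20, -0.08 and -0.18. Of 48 cell wall genes 2 had a lower response, CIS3 (-1.65 ± 0.40) and the septum chitin synthase gene CHS2 (-1.41 ± 0.32), and 1 a higher one, the chitin transferase gene UTR2 (1.29 ± 0.29), with a median of -0.56. Of 42 cell cycle genes FAR1, an inhibitor of the cyclin-dependent kinase in mating, was called (-1.54 ± 0.30, median 0.10), and of 30 genes of Ras, protein kinase A and stress regulators none (median -0.14). PRX1 was called in 6 of 10 fits without 1 library, AHP1 in 4, CHS2 and FAR1 in 3, SRX1, ANT1, CIS3 and UTR2 in 2, and ERG3 in 1.

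Among the 257 called genes 24 were also called with heat in both strains, with opposite signs: in 13 the rise was in XH7 and the fall in Z100, and 11 did the reverse. Opposite heat values make a large interaction, so the choice of called genes favours them, and no share over all genes was taken. AGP1 (YCL025C, chromosome III, 76018 to 77919, minus strand), an amino acid permease gene, stood at 223 and 166 CPM in XH7 at 30 °C, 313 and 431 CPM in XH7 at 50 °C, 404, 476 and 508 CPM in Z100 at 30 °C, and 152, 134 and 141 CPM in Z100 at 50 °C. Z100 was above XH7 at 30 °C and below it at 50 °C without overlap. It rose by 0.94 ± 0.23 in XH7 and fell by 1.70 ± 0.19 in Z100, an interaction of -2.64 ± 0.30 (adjusted p = 0.00582, edgeR). ARG4, of arginine synthesis, and SPR1, a glucanase gene of sporulation, crossed in the same way, with interactions of -1.86 ± 0.36 (adjusted p = 0.023) and -1.79 ± 0.27 (0.0109). ICL2, above, was the fourth. ARG4 was at 138 to 419 CPM and SPR1 at 7.0 to 17.1 CPM over the 10 libraries.

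In the other direction stood MOD5 (YOR274W, chromosome XV, 837674 to 838960, plus strand), which modifies transfer RNA, at 24.7 and 27.9 CPM in XH7 at 30 °C, 15.1 and 15.9 CPM in XH7 at 50 °C, 16.1, 12.9 and 16.5 CPM in Z100 at 30 °C, and 28.6, 26.1 and 30.7 CPM in Z100 at 50 °C. It fell by 0.76 ± 0.19 in XH7 and rose by 0.91 ± 0.15 in Z100, so that the order of the strains turned between temperatures without overlap. The interaction was 1.67 ± 0.24 (adjusted p = 0.009, edgeR). ORC1, the largest subunit of the complex that marks origins of replication, had an interaction of 1.57 ± 0.23 (adjusted p = 0.009), RAD7, of DNA excision repair, 1.62 ± 0.30 (0.0219), and RKR1, a ubiquitin ligase that clears stalled ribosomes' products, 1.47 ± 0.24 (0.0134). RKR1 fell by 0.84 ± 0.18 in XH7 and rose by 0.63 ± 0.15 in Z100. AGP1 was called in 9 of 10 fits without 1 library, SPR1, MOD5 and ORC1 in 8, RKR1 in 7, RAD7 in 5 and ARG4 in 4.

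Several of the largest higher responses were of genes outside these lists. KEL3 (YPL263C, chromosome XVI, 44551 to 46506, minus strand), a kelch repeat protein gene, stood at 115 and 108 CPM in XH7 at 30 °C, 25.3 and 13.9 CPM in XH7 at 50 °C, 51.4, 58.9 and 60.2 CPM in Z100 at 30 °C, and 54.2, 57.1 and 50.1 CPM in Z100 at 50 °C. It fell by 2.51 ± 0.26 in XH7 and had a heat value of -0.08 ± 0.20 in Z100, where the temperatures overlapped. The interaction was 2.43 ± 0.32 (adjusted p = 0.00794, edgeR). PEA2, of the polarisome that guides bud growth, stood at 26.2 and 28.3 CPM in XH7 at 30 °C, 57.4 and 71.7 CPM in XH7 at 50 °C, 11.3, 13.7 and 11.4 CPM in Z100 at 30 °C, and 94.1, 107 and 108 CPM in Z100 at 50 °C. It rose in both strains without overlap, from a lower level to a higher one in Z100, with an interaction of 1.84 ± 0.23 (adjusted p = 0.00776). SNM1, a subunit of RNase MRP, which cuts ribosomal RNA, had an interaction of 1.88 ± 0.27 (adjusted p = 0.00946), and LRP1, a partner of the nuclear exosome, of 1.87 ± 0.40 (0.0314). The libraries of XH7 overlapped between temperatures in both.

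Some unnamed open reading frames with large higher responses are given although they lack a gene symbol and were picked after their values were seen. YOR338W (chromosome XV, 956898 to 957989, plus strand) stood at 108 and 114 CPM in XH7 at 30 °C, 10.4 and 4.68 CPM in XH7 at 50 °C, 11.6, 8.37 and 9.22 CPM in Z100 at 30 °C, and 11.8, 6.77 and 7.87 CPM in Z100 at 50 °C. XH7 at 30 °C was far above the other 3 groups, which overlapped. The interaction was 3.73 ± 0.49 (adjusted p = 0.00794, edgeR). YJR056C (chromosome X, 541792 to 542502, minus strand) stood at 23.0 and 26.9 CPM in XH7 at 30 °C, 15.5 and 36.0 CPM in XH7 at 50 °C, 5.21, 7.49 and 6.404 CPM in Z100 at 30 °C, and 57.3, 62.2 and 75.5 CPM in Z100 at 50 °C. It rose by 3.35 ± 0.31 in Z100 and overlapped between temperatures in XH7, an interaction of 3.31 ± 0.46 (adjusted p = 0.00798). YLR297W rose by 2.25 ± 0.27 in XH7 and 4.46 ± 0.24 in Z100, an interaction of 2.21 ± 0.34 (0.0113). Of these 7 genes, KEL3, PEA2, YOR338W and YJR056C were called in 9 of 10 fits without 1 library, SNM1 and YLR297W in 8 and LRP1 in 3.

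Levels of markers of mating type and meiosis were summed in each library. The summed level of the 6 a-cell markers lay between 32.3 and 36.8 CPM at 30 °C and between 39.0 and 50.2 CPM at 50 °C, with the strains overlapping at both. The 4 alpha-cell markers summed to 16.8 to 38.9 CPM, the 7 haploid markers to 19.1 to 36.9 CPM and the 10 meiosis markers to 39.0 to 101 CPM. The meiosis sum was higher at 50 °C in both strains. It was 44.9 to 49.7 CPM at 30 °C and 91.2 to 101 CPM at 50 °C in XH7. In Z100 it was 39.0 to 56.5 and 77.4 to 90.8 CPM. The haploid sum was lower at 50 °C in both, at 22.1 to 22.4 CPM in XH7 and 19.1 to 28.3 CPM in Z100, against 33.5 to 35.5 and 30.8 to 36.9 CPM at 30 °C. The alpha-cell markers at 30 °C were at 23.1 and 23.3 CPM in XH7 and 33.0 to 38.9 CPM in Z100. The only called marker was BAR1, a protease gene of a-cells, with an interaction of -1.61 ± 0.36 (adjusted p = 0.0362, edgeR), called in 3 of 10 fits without 1 library. The list medians were -0.26, -0.71, -0.56 and -0.29. No gene had 3 counts or fewer throughout 1 strain while having 50 or more throughout the other. The part of the markers in the results above was not tested.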

How the data were processed

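Messenger RNA was measured in 10 libraries of 2 yeast strains at 2 temperatures. Per the labels' protocols, TRIzol extracts were selected by poly(A) and made into unstranded libraries (NEBNext Ultra RNA kit) for a NovaSeq instrument. The authors deposited raw counts for 6059 genes. Which aligner and counter they used is not given in the sources used here. The deposited FPKM values, scaled by length and library total, entered an alternative only. Of the genes, 6056 matched RefSeq on the R64 genome, 260 overlapped a neighbour and 310 had a copy with 95% identity or more over 50% or more of their length (found with BLAST 2.17.0). Another 3 lines of the count table hold no gene and are not analysed here.

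The test was edgeR's quasi-likelihood F test (edgeR 4.0.16 with limma 3.58.1 in R 4.3.3) on group means, fitted to all 10 libraries, with TMM factors and 6015 genes kept by filterByExpr. Residual degrees of freedom were 6 and prior ones 3.95, at a biological coefficient of variation of 0.238. Adjustment was by Benjamini and Hochberg's method over the genes tested, and calls were made under 0.05. A standard error is the contrast's size over the root of F. In the simulated data, which held no heat or strain effect beyond the added changes, 6.3% of calls were false. That share may not hold for the measured libraries.

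Members, tests and the 38 gene lists, drawn from general knowledge of yeast, were chosen with earlier results of these data known. Genes to be named were the 8 largest interactions each way (at least 10 CPM in the highest group, a symbol, more than 3 counts in every library, no overlap or copy), up to 4 called members a list, up to 4 genes each way with opposite heat calls, and 12 anchors. The rule asked for calls in every fit without 1 library, which 1 gene met, so called genes were used instead, a change made after the values were seen. GPH1, MLS1, JEN1, ICL1, SMF3, RTN2 and the unnamed reading frames fall outside the rule.

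Promoter windows were read from the R64 genome, and the 4 shown were chosen after their matches were seen. The tests were repeated with DESeq2 1.42.0, limma-voom with and without library weights, other scalings and filters, limma on log2(FPKM + 1) and log2(FPKM + 0.1), a fold threshold, the replicate number as a block and leaving out each library. A group left with a lone library by this was assumed to vary as the others did. Python 3.11.15 with pandas 2.3.3, numpy 2.4.6 and, for figures, matplotlib 3.10.9 made the tables.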

Additional observations from a re-analysis of the deposited data

Results flagged for a closer look

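The heat responses of the strains differed by a test of the difference itself in 257 genes (edgeR, adjusted p under 0.05), which is the comparison of the report. Among them, these were called with heat in both strains with opposite signs. The interaction was -3.84 for ICL2, -2.64 for AGP1, -1.86 for ARG4 and -1.79 for SPR1, which rose in XH7 and fell in Z100. It was 1.67 for MOD5, 1.62 for RAD7, 1.57 for ORC1 and 1.47 for RKR1, which fell in XH7 and rose in Z100. Each of the 8 lost its call without XH7 30 °C replicate 2, at adjusted p-values of 0.0702 for ICL2 to 0.164 for ARG4, and kept its sign in all 10 fits without 1 library.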

How the results depend on the processing

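With all 10 libraries 257 genes were called, 159 lower and 98 higher in Z100, and none of the 257 changed sign under any alternative run. The alternatives used the libraries from which the 257 were chosen, so kept signs are no separate support. Leaving out 1 library gave 2 to 1065 calls, 2 to 640 lower and 0 to 425 higher. DESeq2 called 841 (482 lower, 359 higher), among them all 257. Voom with library weights called 245 lower. With library size as the only scaling 299 were lower and 39 higher, so the share of higher calls went from 38.1% to 11.5%. Limma on log2(FPKM + 1) called 314 lower and 59 higher, and on log2(FPKM + 0.1) 305 and 46. Tested against an interaction of 1, edgeR called 23 (19 lower, 4 higher). Other scalings, filters and voom without weights gave totals within 1.5 times the 257. The interaction of SSA4, not called, lay between -0.12 (without XH7 50 °C replicate 2) and 0.72 (without XH7 50 °C replicate 1) in these fits. The cause of these changes was not tested. The labels' replicate numbers were not taken to pair the libraries. Over 13 pairs with the same number the correlation of deviations from group means was -0.182 to 0.635, and 5 were above 0.1. The highest were the 2 pairs across strains at 50 °C (0.635 and 0.529), against -0.635 and -0.529 for the same Z100 libraries with the other XH7 library. In a group of 2 libraries the deviations mirror each other, so these pairs are not separate evidence. What libraries of the same number shared was not tested. With the number as a replicate block 152 genes were called (103 lower, 49 higher), of which 145 were among the 257. The genes named under the rule and the unnamed reading frames were 98, some of them anchors with no call to lose. Of these, 29 lost their call, among them CUR1, YDJ1, SSE1, IPI3, DIM1, CIC1 and RRP14. Libraries held 51901045 counts or more, and the effect of depth on the calls was not tested.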

Other observations

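Ty retrotransposons are mobile elements whose gag and gag-pol genes lie in many near-identical copies in the yeast genome. Of 86 such genes tested, 11 had a lower response in Z100 and 2 a higher one, and 85 have a near-identical copy, so it is uncertain which copy the counts belong to. Of all genes tested 2.64% were lower and 1.63% higher. The 11 were near the floor in most groups. Their median group mean was 0.20 CPM in XH7 at 30 °C and 0.24 CPM at 50 °C. In Z100 it was 6.48 CPM at 30 °C and 0.46 CPM at 50 °C. One of them, YBL101W-A, was highest in XH7 at 50 °C instead, at 7.48 and 5.68 CPM. The Ty genes were looked at after their values were seen. YBL005W-A was at 0.210 and 0.192 CPM in XH7 at 30 °C, 0.255 and 0.213 CPM in XH7 at 50 °C, 52.9, 49.5 and 48.8 CPM in Z100 at 30 °C, and 0.523, 0.435 and 0.410 CPM in Z100 at 50 °C. The 3 libraries of Z100 at 30 °C stood far above all others. Its interaction of -7.00 ± 0.33 (adjusted p = 6.9e-06, edgeR) was called in 10 of 10 fits without 1 library. It overlaps YBL005W-B and has copies in YDR170W-A, YMR045C and YMR046C. Over all 86 genes the summed level was 1206 and 1297 CPM in XH7 at 30 °C, 3213 and 2630 CPM in XH7 at 50 °C, 979, 958 and 891 CPM in Z100 at 30 °C, and 1559, 1360 and 1291 CPM in Z100 at 50 °C. In both strains the sum was higher at 50 °C with no overlap, and at each temperature it was higher in XH7 than in Z100.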
